A study of Mus musculus with 4 samples.

Results

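Csf3, the gene of granulocyte colony-stimulating factor (G-CSF), and the chemokine genes Cxcl1, Cxcl2 and Cxcl3 were examined in the inflamed mouse colon with and without the Ets family transcription factor Elf4. They were picked by gene symbol from the authors' deposited table, which holds 4121 genes, and 4 of 4 were found in it. The choice was made because their values differed between the genotypes, so those values are given as a description, and no test of them was made. RNA was sequenced from distal colon of C57BL/6 mice aged 8 weeks treated with 3% dextran sulfate sodium (DSS), a polymer that damages the colon lining, and tissue was taken at day 6. There were 2 Elf4-KO samples and 2 wild-type (WT) samples, and all of them came from DSS-treated mice with colitis. The sources used here do not state which part of Elf4 was deleted or whether the samples of a genotype are from separate animals.

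The table gives 1 FPKM value per gene and genotype, that is, sequenced fragments scaled by transcript length and by the fragments mapped. No value can therefore be given for a single sample, nor any SD, interval or read depth, and a difference between genotypes cannot be set against the spread between replicates. It is restricted to genes that passed the authors' own comparison, on which "rose" and "fell" rest here, and the q of each gene named was 0.000372 in the authors' deposited table unless another is stated. Elf4 itself was at 3.51 FPKM in Elf4-KO colon, against 16.4 FPKM in WT colon, a 4.68-fold fall. Of 10 colon markers, 9 were listed and all 9 fell, beside 52.0% of all listed genes that were lower. These markers were chosen with earlier results of these data known. Among them, the homeobox gene Cdx1 was at 6.25 FPKM in Elf4-KO and 104 FPKM in WT. Hoxb13, another homeobox gene, was at 2.42 FPKM in Elf4-KO and 39.6 FPKM in WT. The chloride exchanger gene Slc26a3 was at 25.8 FPKM in Elf4-KO and 358 FPKM in WT.

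G-CSF is secreted by stromal, epithelial and myeloid cells, acts on its receptor on granulocyte precursors, and drives the making and release of neutrophils in the bone marrow. The proteins of Cxcl1, Cxcl2 and Cxcl3 carry a Glu-Leu-Arg (ELR) motif and bind the receptor CXCR2, by which neutrophils are drawn from blood into tissue. Interleukin-1, tumor necrosis factor and interleukin-17 are known to induce all of them, largely through the transcription factor NF-kappaB and through longer survival of their mRNAs, whose AU-rich tails are otherwise bound by decay factors such as tristetraprolin. In the colon injured by DSS they are part of the acute response that fills the tissue with neutrophils.

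The promoters of the chemokine genes are shown because they share an arrangement of motifs. RefSeq promoters on GRCm38.p6, each 250 bases before to 50 bases after the transcription start, were at hand for Cxcl1, Cxcl2 and Cxcl3, and Csf3 had no entry. Below are the 120 bases just before the RefSeq start, 5′ to 3′ on the plus strand. Capitals mark the NF-kappaB motif GGAATTTCC and, after it, ATAAAAGG, a TATA-like motif. Their coordinates are chr5:90785981-90786100 for Cxcl3, chr5:90891125-90891244 for Cxcl1 and chr5:90903779-90903898 for Cxcl2.
Cxcl3: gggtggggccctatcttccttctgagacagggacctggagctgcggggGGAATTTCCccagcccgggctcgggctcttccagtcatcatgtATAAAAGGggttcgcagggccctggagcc
Cxcl1: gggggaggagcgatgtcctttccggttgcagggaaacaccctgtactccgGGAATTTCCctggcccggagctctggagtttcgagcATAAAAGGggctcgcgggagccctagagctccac
Cxcl2: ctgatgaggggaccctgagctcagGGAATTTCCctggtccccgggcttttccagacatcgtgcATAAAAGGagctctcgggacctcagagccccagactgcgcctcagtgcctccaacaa

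Each of these promoters holds GGAATTTCC once, and it begins 72 bases before the RefSeq start in Cxcl3, 70 in Cxcl1 and 96 in Cxcl2. The printed Cxcl2 stretch ends at chr5:90903898, past the GENCODE start of the gene at chr5:90903871. Its larger distance therefore depends on which start is used. The Cxcl1 stretch also runs slightly past its GENCODE start, from chr5:90891241 to chr5:90891244. The TATA-like motif follows it, with 34 bases between them in Cxcl3, 27 in Cxcl1 and 30 in Cxcl2. Searched on both strands, GGAATTTCC occurred in 0.317% of the 32851 promoters of the RefSeq table and ATAAAAGG in 1.76%. Only 3 promoters held GGAATTTCC on either strand and ATAAAAGG on the printed strand, both before the start, and they are those of Cxcl1, Cxcl2 and Cxcl3. ATAAAAGG was chosen after the sequences were seen, because TATAAA was found in Cxcl3 (13.6% of all promoters hold it) but not in Cxcl1 or Cxcl2, so this count is a description.

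Among the other motifs searched, a looser NF-kappaB motif, GGNNNTTCC, which overlaps GGAATTTCC, was found at 2 places in each and in 18.5% of all promoters. The C/EBP motif TTNNGNAA was found once in Cxcl2 and in 40.7% of all promoters. The E-box CACGTG was found once in Cxcl3 and in 7.15% of all. Several other motifs were not found in these windows, and the share of all promoters holding each is in parentheses. They were GGACTTTCC (0.344%), the C/EBP motif TTGCNNAA (10.8%), the AP-1 motif TGACTCA (5.20%) and the CK-1 motif GAGATTCCA of colony-stimulating factor genes (0.228%). The Ets motifs CCGGAAG (8.86%) and ACTTCCG (6.42%) were also not found. Other Ets sequences were not searched, so whether these windows hold any is not known. In global alignments the printed stretches were 62.9% identical for Cxcl1 and Cxcl3, 50% for Cxcl1 and Cxcl2 and 47.3% for Cxcl2 and Cxcl3. The stretches were cut at the RefSeq starts, so the identities with Cxcl2 also depend on the start used.

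**Figure D1:**
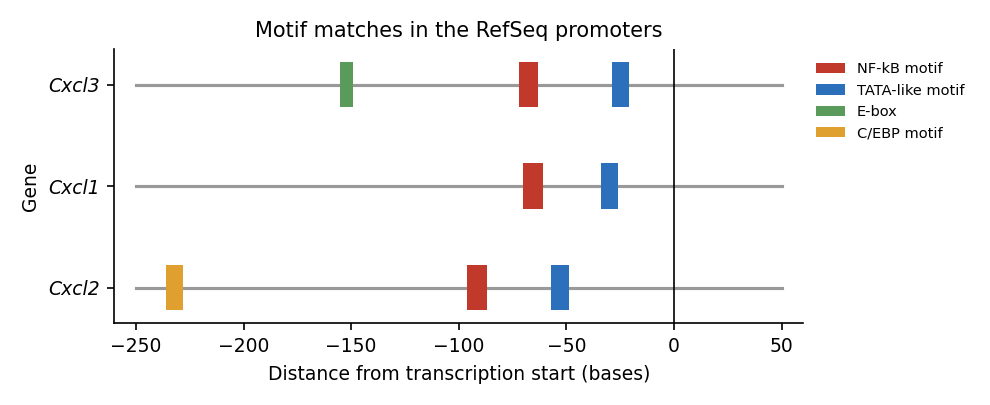
Motif matches in the RefSeq promoters of Cxcl3, Cxcl1 and Cxcl2, by distance from the RefSeq transcription start in bases (vertical line). Boxes are as wide as the motif, and the looser NF-kappaB motif is not drawn. In each promoter the NF-kappaB motif (first base 72, 70 and 96 bases before the start) is followed by the TATA-like motif, with 34, 27 and 30 bases between them.

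Csf3 (ENSMUSG00000038067) lies at chr11:98701263-98703629 on the plus strand of GRCm38. It stood at 260.3 FPKM in Elf4-KO colon, against 4.78 FPKM in WT colon, and the 54.5-fold difference was the largest of the 4 genes. Cxcl2 (ENSMUSG00000058427, chr5:90903871-90905938), known in mice as MIP-2, was at 522 FPKM in Elf4-KO colon and 11.1 FPKM in WT colon, 46.9-fold apart. By level both genes stood above most listed genes in Elf4-KO colon, while in WT colon Csf3 was below the median of listed genes (10.1 FPKM) and Cxcl2 close to it.

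Cxcl3 (ENSMUSG00000029379, chr5:90786103-90789600), the lowest of the 4 in either genotype, was at 147 FPKM in Elf4-KO colon and 3.51 FPKM in WT colon. Its fold, 41.7, was close to that of Cxcl2. Cxcl1 (ENSMUSG00000029380, chr5:90891241-90893115), known in mice as KC, was the highest of them in either genotype, at 735 FPKM in Elf4-KO colon and 48.4 FPKM in WT colon. It also had the smallest fold, 15.2. In the authors' deposited table each of these genes had p = 5e-05 and q = 0.000372, the smallest values it holds, which 2233 genes share.

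**Figure D2:**
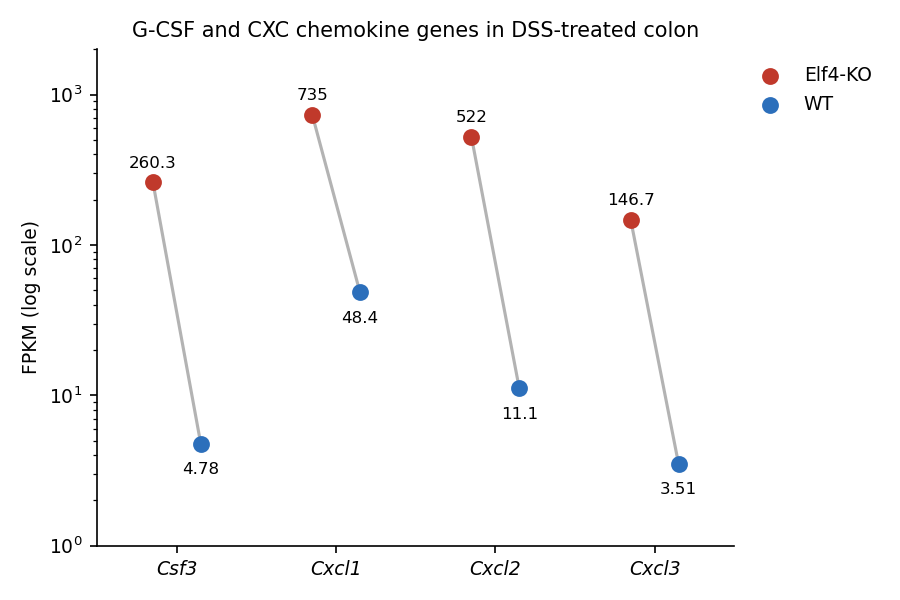
FPKM (log scale) of Csf3, Cxcl1, Cxcl2 and Cxcl3, 1 point per genotype, Elf4-KO (red) and WT (blue), with no error bars because the table gives 1 value per genotype. The order of the genes by level, Cxcl1, Cxcl2, Csf3 and Cxcl3, is the same in both genotypes, and the Elf4-KO points lie between 146.7 and 735 FPKM, against 3.51 to 48.4 FPKM in WT.

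The order of levels, which FPKM puts on a per-length scale, was Cxcl1, Cxcl2, Csf3 and Cxcl3 in either genotype, and without replicates it is not known which neighbors in it differ beyond their spread. The distances between the genes were not the same. Cxcl1 stood 1.41 times as high as Cxcl2 in Elf4-KO colon and 4.34 times in WT colon. Against Cxcl3 the ratio was 5.01 in Elf4-KO colon and 13.8 in WT colon. Cxcl2 and Cxcl3 kept more nearly the same proportion, 3.56 in Elf4-KO colon and 3.17 in WT colon. The Cxcl genes together summed to 1404 FPKM in Elf4-KO colon and 63.0 FPKM in WT colon, 22.3-fold apart. Cxcl1 made up 52.4% of that sum in Elf4-KO colon and 76.7% in WT colon, and Cxcl2 37.2% in Elf4-KO colon and 17.7% in WT colon.

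Within the table, these genes stood near the top by level in Elf4-KO colon and lower down in WT colon. Csf3 was above 96.7% of listed genes by level in Elf4-KO colon and above 34.3% in WT colon. Cxcl3 was above 94.2% in Elf4-KO colon and 28.1% in WT colon, Cxcl2 above 98.4% in Elf4-KO colon and 52.3% in WT colon, and Cxcl1 above 98.96% in Elf4-KO colon and 79.9% in WT colon. By fold, among the 4092 listed genes above 0 in WT, Csf3 ranked 6, Cxcl2 9, Cxcl3 10 and Cxcl1 46. All 4 were at least 10-fold higher in Elf4-KO colon, as were 117 of the 4121 listed genes (2.84%). Since the genes were picked for this difference, nothing is read from that comparison. The median log2 ratio of all listed genes, with 1 FPKM added to both values, was -0.76, beside 5.50 for Csf3, 5.43 for Cxcl2, 5.03 for Cxcl3 and 3.90 for Cxcl1.

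**Figure D3:**
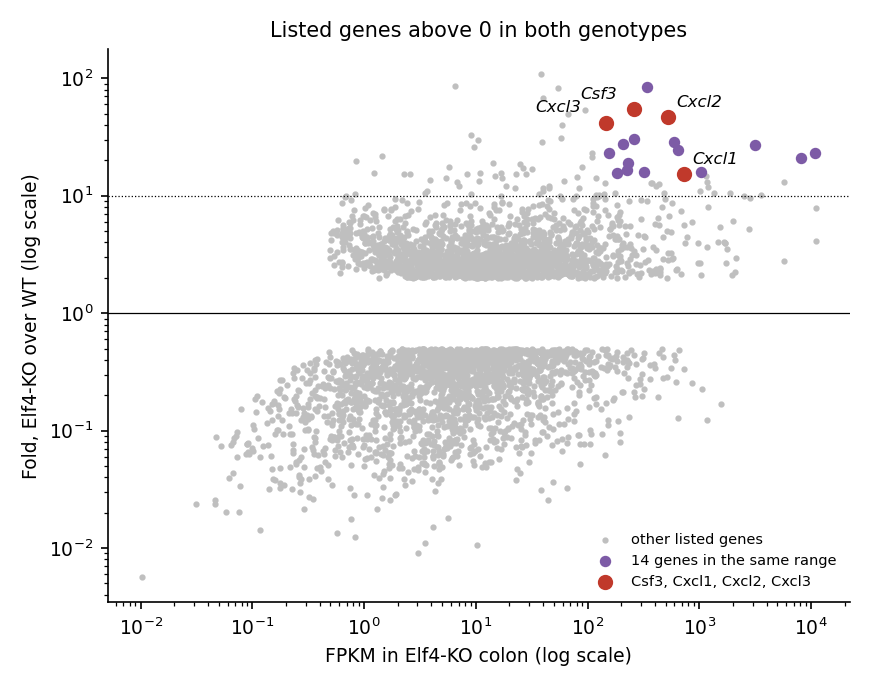
Fold of Elf4-KO over WT against the FPKM in Elf4-KO colon (both log scales) for listed genes above 0 in both genotypes, where the empty band around 1 comes from the authors' 2-fold limit and the dotted line marks 10-fold. Csf3, Cxcl1, Cxcl2 and Cxcl3 (red) lie at 15.2-fold to 54.5-fold and 146.7 to 735 FPKM, with 14 other genes (purple) at or above both lower bounds.

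A further 14 listed genes had both a fold of at least 15.2 and an Elf4-KO level of at least 146.7 FPKM, the lowest fold and level among Csf3, Cxcl1, Cxcl2 and Cxcl3. Likeness here rests on the fold and level of 2 group values and on nothing else. They included Il1r2, a decoy receptor for interleukin-1 (157 FPKM in Elf4-KO and 6.83 FPKM in WT), and Ptgs2, the inducible cyclooxygenase (231 FPKM in Elf4-KO and 12.2 FPKM in WT). Retnlg, a gene of neutrophils, was at 643 FPKM in Elf4-KO and 26.3 FPKM in WT. Chil3, a chitinase-like gene of myeloid cells, had almost the same Elf4-KO level as Csf3, 260.2 FPKM, against 8.55 FPKM in WT. The heme oxygenase gene Hmox1 rose 28.9-fold, the lipocalin gene Apod 15.6-fold and Ctla2a 16.5-fold. The metallothionein genes were the highest of them by level, Mt1 at 8174 FPKM in Elf4-KO and 388 FPKM in WT and Mt2 at 10908 FPKM in Elf4-KO and 473 FPKM in WT. The other 5 were the immunoglobulin segments Ighv1-34, Igkv6-13, Ighv2-2, Ighv11-2 and Igkv4-51, 15.9-fold to 85.0-fold higher, whose near-identical copies make the split of reads uncertain.

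Cxcl1, Cxcl2 and Cxcl3 are neighbors on chromosome 5, in a cluster with Cxcl5, Ppbp and Pf4 that spans 147 kb (chr5:90759360-90905938), all on the plus strand. Cxcl15, another CXC gene, lies between Cxcl3 and Cxcl1 in the annotation and was not listed. The 3 neighbors Cxcl5, Ppbp and Pf4 were listed and rose. Cxcl5, whose protein is another ELR ligand of CXCR2, was at 478 FPKM in Elf4-KO colon and 106 FPKM in WT colon. Its WT level was the highest and its fold, 4.49, the smallest among the listed CXC genes of the cluster. Ppbp, the platelet basic protein gene and also of the ELR group, was at 40.1 FPKM in Elf4-KO and 0.584 FPKM in WT, so its 68.6-fold difference rests on a low WT level. Pf4, the platelet factor 4 gene, whose protein has no ELR motif, was at 412 FPKM in Elf4-KO and 33.7 FPKM in WT, a 12.2-fold rise. The promoters of Ppbp and Pf4 held no GGAATTTCC, and Cxcl5 had no promoter entry.

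**Figure D4:**
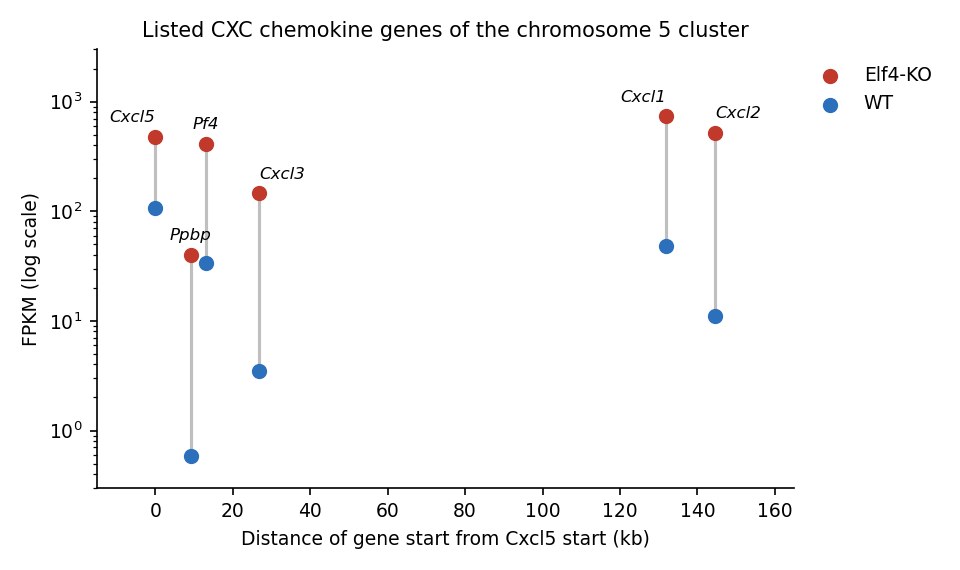
FPKM (log scale) of the 6 listed CXC chemokine genes of the chromosome 5 cluster (Cxcl15 was not listed) in Elf4-KO (red) and WT (blue) colon, by the distance of each gene's start from that of Cxcl5 in kb. Elf4-KO values are above WT values at these 6 genes, of which Cxcl1, Cxcl2 and Cxcl3 were picked for that difference, from 4.49-fold at Cxcl5 to 68.6-fold at Ppbp.

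Sequences were compared in 1 GENCODE transcript per gene, the one with the longest 3′ untranslated region. For Cxcl2 it has 3 exons, against 4 in Cxcl1 and Cxcl3, and other transcripts were not compared. Coding sequences were 87.8% identical between Cxcl2 and Cxcl3, 75.7% between Cxcl1 and Cxcl2 and 72.6% between Cxcl1 and Cxcl3. In these transcripts Cxcl2 and Cxcl3 shared 61 stretches of 50 bases, 3.37% of those of Cxcl2 and 6.31% of those of Cxcl3. Reads from that part cannot be assigned to either gene with certainty, and the sources used here do not state the read length. No stretch of 50 bases was shared by any other pair among Csf3, Cxcl1, Cxcl2 and Cxcl3.

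The 4 mRNAs also share AU-rich 3′ untranslated regions, the feature read by the decay factors. In the transcript with the longest such region, Csf3 holds ATTTA 6 times in 669 bases and Cxcl1 7 times in 592 bases. Cxcl2 holds it 11 times in 1494 bases and Cxcl3 5 times in 645 bases. The Cxcl2 transcript has 3 exons and 1859 bases, in a locus of 2068 bases, so its region may include bases that other transcripts splice out. Other transcripts were not counted, and the Cxcl2 values below hold for this one. Per kilobase this is 8.97 for Csf3, 11.8 for Cxcl1, 7.36 for Cxcl2 and 7.75 for Cxcl3, beside a median of 1.28 over 20605 genes with such a region of at least 50 bases. A density at least as high as in Csf3 was found in 1.55% of those genes, and as high as in Cxcl1 in 0.704%, Cxcl2 in 2.83% and Cxcl3 in 2.43%. By count of ATTTA, not scaled by length, the shares were larger: 17.1% for Csf3, 13.5% for Cxcl1, 5.54% for Cxcl2 and 21.9% for Cxcl3. The longer TATTTAT, which overlaps ATTTA, occurs 2 times in Csf3, 6 in Cxcl1, 7 in Cxcl2 and 2 in Cxcl3. It is held at least once by 28.0% of the genes. At least as many TATTTAT as in Csf3 or Cxcl3 were found in 10.5% of the genes, as in Cxcl1 in 0.500% and as in Cxcl2 in 0.281%. The 30 bases with the most ATTTA in each follow in DNA letters, with ATTTA in capitals, at bases 24 to 53 after the stop codon in Csf3, 79 to 108 in Cxcl1, 883 to 912 in Cxcl2 and 181 to 210 in Cxcl3.
Csf3: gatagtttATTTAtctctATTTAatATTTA
Cxcl1: gagggtcctATTTATTTAtgtATTTATTTA
Cxcl2: tATTTATTTAtctatgtATTTATTTATTTA
Cxcl3: caagatggcatcttATTTAatgtttATTTA

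Genes around these ligands are given next by list. Across all listed genes, 48.0% were higher and 52.0% lower in Elf4-KO colon. The lists were chosen with earlier results of these data known. Counts in them are therefore a description, and nothing is read from their distance to those shares. Genes not in the table are not analysed here. Of 6 receptors and other ligands of the ELR chemokines, 4 were listed and all 4 rose (median log2 ratio 2.36). Besides Cxcl5 and Ppbp, the neutrophil receptor gene Cxcr2 was at 28.9 FPKM in Elf4-KO and 4.03 FPKM in WT, a 7.19-fold rise. Ackr1, encoding a receptor on venules that binds chemokines without signaling, was at 85.8 FPKM in Elf4-KO and 23.7 FPKM in WT (q = 0.00852 in the authors' deposited table), but its listed locus is shared with other listed genes and is 71.9 times as wide as the annotated gene. Cxcl15 and Cxcr1 were not listed. The summed FPKM of Cxcl1, Cxcl2 and Cxcl3 was 48.5 times that of Cxcr2 in Elf4-KO colon and 15.6 times in WT colon.

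Of 7 other colony-stimulating factor and receptor genes, 3 were listed and all 3 rose, with a median log2 ratio of 1.03. Csf3r, the G-CSF receptor gene, was at 25.5 FPKM in Elf4-KO and 10.5 FPKM in WT, a 2.43-fold rise. Csf3 was thus 10.2 times as high as its receptor gene in Elf4-KO colon, and 0.454 times as high in WT colon. Csf1, the macrophage growth factor gene, was at 23.3 FPKM in Elf4-KO and 10.9 FPKM in WT. Csf2rb, the shared chain of receptors for GM-CSF, interleukin-3 and interleukin-5, was at 38.7 FPKM in Elf4-KO and 19.0 FPKM in WT. Csf2, Csf1r, Csf2ra and Csf2rb2 were not listed.

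CXC chemokines without the ELR motif moved both ways. Of 9, 4 were listed, and 2 rose and 2 fell (median log2 ratio -0.05). Pf4 rose as given above, and Cxcl13, a chemokine that attracts B cells, was at 410.3 FPKM in Elf4-KO and 120 FPKM in WT. Cxcl9 and Cxcl10, induced by interferon gamma and binding CXCR3 on T cells, fell. Cxcl9 was at 3.07 FPKM in Elf4-KO and 51.3 FPKM in WT, and Cxcl10 at 27.8 FPKM in Elf4-KO and 104 FPKM in WT.

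Of 14 upstream cytokines, 7 were listed and all 7 rose (median log2 ratio 2.22). Il6 was at 118 FPKM in Elf4-KO and 11.6 FPKM in WT, a 10.2-fold rise. Osm, encoding oncostatin M of myeloid cells, was at 18.7 FPKM in Elf4-KO and 1.54 FPKM in WT, and Lif, of the same cytokine family, at 26.2 FPKM in Elf4-KO and 3.58 FPKM in WT. Only Osm and Il6 of this list reached 10-fold. The other 4 were chosen after their values were seen. Il1b rose 3.37-fold to 262 FPKM in Elf4-KO, and Il1a rose 5.73-fold to 19.8 FPKM. Il17a rose 7.42-fold to 2.64 FPKM in Elf4-KO, against 0.355 FPKM in WT (q = 0.0164 in the authors' deposited table). Il1f9, the interleukin-36 gamma gene, rose 5.09-fold to 6.37 FPKM. Tnf, Il17f and Il22 were among the 7 not listed.

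**Figure D5:**
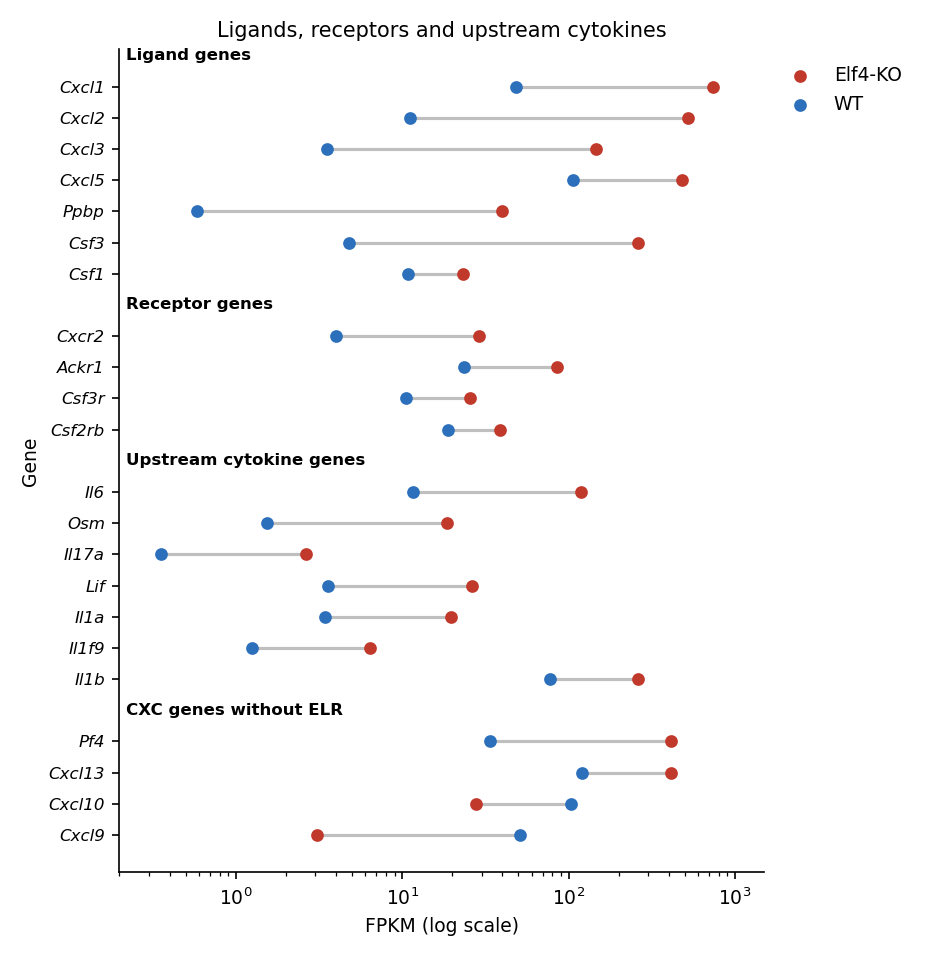
FPKM (log scale) in Elf4-KO (red) and WT (blue) colon for genes of ligands, receptors, upstream cytokines and CXC chemokines without the ELR motif, 1 gene per line. Elf4-KO points lie to the right of WT points except at Cxcl10 and Cxcl9, and the lines are longest for Ppbp, Csf3, Cxcl2 and Cxcl3.

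Of 12 upstream receptors and adaptors, 7 were listed, 5 higher and 2 lower (median log2 ratio 1.15). Il1r1, the signaling receptor for interleukin-1, was at 102 FPKM in Elf4-KO and 26.9 FPKM in WT. Il1rap, its partner chain, rose 2.75-fold and Il6st, the shared gp130 chain, 2.34-fold. The chains of the interleukin-17 receptors moved apart. Il17rc was at 15.4 FPKM in Elf4-KO and 72.2 FPKM in WT, and Il17re, which pairs with the common chain to bind interleukin-17C, at 0.921 FPKM in Elf4-KO and 5.12 FPKM in WT. Il17ra, the common chain, chosen after its values were seen, was at 21.4 FPKM in Elf4-KO and 9.06 FPKM in WT (q = 0.00753 in the authors' deposited table).

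Of 15 NF-kappaB, C/EBP and feedback genes, 4 were listed and all 4 rose, 2.45-fold to 3.66-fold. Nfkbia, an inhibitor that NF-kappaB itself induces, was at 252.5 FPKM in Elf4-KO and 80.6 FPKM in WT, and Tnfaip3, another such inhibitor, at 74.4 FPKM in Elf4-KO and 30.3 FPKM in WT. The C/EBP factor genes rose as well, Cebpb to 386 FPKM in Elf4-KO, against 105 FPKM in WT, and Cebpd to 186 FPKM in Elf4-KO, against 59.8 FPKM in WT. None of the NF-kappaB subunit genes Nfkb1, Nfkb2, Rela, Relb and Rel was listed. Of 12 mRNA decay and stability factors, 3 were listed and all 3 rose. Zfp36, the tristetraprolin gene, was at 129 FPKM in Elf4-KO and 55.0 FPKM in WT. Its paralog Zfp36l1 was at 227 FPKM in Elf4-KO and 61.8 FPKM in WT, and Zc3h12c at 5.87 FPKM in Elf4-KO and 1.17 FPKM in WT. Zc3h12a, the Regnase-1 gene, was not listed.

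Of 11 genes of G-CSF receptor signaling, 3 were listed, 1 higher and 2 lower (median log2 ratio -1.24). The kinase gene Pim1 was at 92.6 FPKM in Elf4-KO and 36.5 FPKM in WT. Socs1, a feedback inhibitor of cytokine signaling, was at 12.8 FPKM in Elf4-KO and 42.9 FPKM in WT. Gfi1, a repressor needed for neutrophil development, was at 1.06 FPKM in Elf4-KO and 3.86 FPKM in WT (q = 0.00288 in the authors' deposited table). Stat3 and Socs3 were not listed. Of 8 genes of neutrophil adhesion and exit from vessels, 4 were listed and all 4 rose (median log2 ratio 1.83). The endothelial selectin genes Selp and Sele rose 5.52-fold and 3.36-fold, the integrin gene Itgam 6.41-fold and Icam1 2.22-fold (q = 0.000694 for Sele in the authors' deposited table).

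The listed loci of Ackr1, Cebpb, Cebpd, Cxcl10, Icam1, Il1b, Mt2, Pim1, Selp and Zfp36 are over 1.5 times as wide as the annotated genes, so reads of neighboring genes may be counted in their values. The loci of Csf3, Cxcl1, Cxcl2 and Cxcl3 match the annotation at both ends.

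Markers of several cell types moved in the same tissue, and in bulk RNA a change in the number of cells of a type and a change in RNA per cell cannot be told apart. Of 22 neutrophil markers, 17 were listed, 15 higher and 2 lower (median log2 ratio 3.23), with a summed level of 5791 FPKM in Elf4-KO and 1332 FPKM in WT. Mmp8, Ngp and Retnlg rose 54.0-fold, 108-fold and 24.5-fold (q = 0.000998 for Ngp in the authors' deposited table). In WT, Ngp was at 0.357 FPKM and Mmp8 at 1.74 FPKM, so their folds rest on low WT levels. Ly6g and Ltf fell 5.86-fold and 7.01-fold. Ly6g, at 145.7 FPKM in Elf4-KO and 854 FPKM in WT, is most of the WT sum, and without it the sums were 5645 FPKM in Elf4-KO and 478 FPKM in WT. The granule genes Mpo, Elane, Prtn3, Ctsg and Camp were not listed.

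The table held 6 of 14 monocyte and macrophage markers, and all 6 rose (summed level 648 FPKM in Elf4-KO and 151 FPKM in WT). They were Arg1, Marco and Spp1, which rose 49.5-fold, 30.7-fold and 13.3-fold, and Mrc1, Cd14 and Cd68, which rose 5.37-fold, 3.16-fold and 2.62-fold. The folds of Arg1 and Marco rest on low WT levels, 1.36 and 1.89 FPKM. The markers not listed were Lyz2, C1qa, C1qb, C1qc, Ccr2, Adgre1, Ly6c2 and Csf1r. The rise therefore describes the listed markers only and not this list as a whole. Of 10 fibroblast and stromal markers, 7 were listed and all 7 rose (4680 FPKM in Elf4-KO and 1301 FPKM in WT), led by Dcn, Pdgfrb and Pdpn. Of 8 endothelial markers, 7 were listed and all 7 rose (289 FPKM in Elf4-KO and 103 FPKM in WT), led by Emcn, Cdh5 and Vwf (q = 0.000998 for Vwf in the authors' deposited table).

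Epithelial markers went the other way. Of 14, all 14 were listed and all 14 fell, with a summed level of 1540 FPKM in Elf4-KO and 14069 FPKM in WT, and falls of 19.4-fold for Krt19, 16.2-fold for Krt8 and 13.9-fold for Slc26a3. Slc26a3, Tff3, Muc2, Car1 and Aqp8 are also among the colon markers given at the start, so the falls of these lists are not separate observations. Of 8 T cell markers, 7 were listed and all 7 fell (46.5 FPKM in Elf4-KO and 139 FPKM in WT), most in Cd3g, Trbc1 and Cd3e. No listed gene of these marker lists was at 0 in either genotype. The part of these shifts in the values of Csf3, Cxcl1, Cxcl2 and Cxcl3 was not tested. The summed Cxcl1, Cxcl2 and Cxcl3 level differed by 22.3-fold, beside 4.35-fold for the summed neutrophil markers (11.8-fold without Ly6g), 4.29-fold for monocyte and macrophage markers, 3.60-fold for fibroblast and stromal markers and 2.80-fold for endothelial markers. These marker sums hold only listed markers, which passed the authors' limits, and the Cxcl genes were picked for this difference. Nothing is therefore read from setting the folds side by side.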

How the data were processed

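The authors deposited 1 table with 1 FPKM value per gene and genotype, made from 2 Elf4-KO and 2 WT samples of mouse colon, and the sources used here do not state how the samples of a genotype were combined. Per the labels' protocols, RNA was taken with Trizol and sequenced from Vazyme mRNA-seq libraries. The submitters' processing notes name Bowtie 0.12.2, Cufflinks 2.2.1 and mm8, with no roles. The p-value and q-value columns were deposited by the authors, and by the values the table holds only genes with q of at most 0.05 and about a 2-fold difference or more. Its coordinates, after adding 1 to the start, are on GRCm38: of 4121 gene identifiers, 4116 were found in GENCODE M21, 4116 of these on the annotated chromosome and 3162 with the same end. Folds were computed from FPKM and log2 ratios after adding 1 FPKM to both values, which understates the change of low genes. With 1 value per genotype, no test, SD or normalization could be computed, and depth is unknown.

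The 4 genes and 16 gene lists (174 genes, of which 101 were listed) were chosen with earlier results of these data known. Interleukin-36 genes were matched by their older symbols. Genes were named by a rule: every listed member of a list with at most 6 listed, otherwise the 3 largest changes in each direction with at least 1 FPKM in the higher genotype, Elf4, and genes at or above the lowest fold and Elf4-KO level of the 4 genes. Motifs were searched in RefSeq promoters, and ATTTA in GENCODE 3′ untranslated regions, with 1 transcript per gene. Fold counts and the motif search were tested on simulated data. Python 3.11.15, numpy 2.4.6, pandas 2.3.3 and matplotlib 3.10.9 were used. Alternatives were other pseudocounts, centring, FPKM minimums of 1 and 5, q of at most 0.01, a 4-fold limit, protein-coding genes only and leaving out genes listed at 0.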

Additional observations from a re-analysis of the deposited data

How the results depend on the processing

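No paired analysis was possible because each genotype has a single value in the table. Leaving out samples in turn was likewise not run, and the weight of any 1 sample in a value is unknown. Shifts of up to 1.5 times were counted as no move. With a pseudocount of 0.1 or none, the log2 ratios of Csf3, Cxcl2, Cxcl3 and Cxcl1 stayed within that limit, at 5.77, 5.55, 5.38 and 3.93 with none. Centring on the table median of -0.76 raised them to 6.26, 6.19, 5.79 and 4.66, a shift set by the construction. The count of genes at least 10-fold higher, 117, was 95 under a minimum of 1 FPKM and 81 under one of 5 FPKM, 100 with q of at most 0.01, 84 for protein-coding genes and 88 without genes listed at 0. Over all lists, 68 distinct genes were higher and 33 lower, and a 4-fold limit left 34 and 23. Over all listed genes, 48.0% were higher and 52.0% lower. The lists were chosen with earlier results of these data known, so nothing is read from that difference. Of the counts for single lists, 84 stayed within 1.5 times and 12 moved, all under the 4-fold limit, which keeps fewer genes by construction. The 84 include counts that were 0 from the start, which no filter can change. The tally is therefore no measure of how stable the list counts are.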

Other observations

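The chemokine cluster borders genes of the epidermal growth factor family. Ereg, the epiregulin gene, was at 491 FPKM in Elf4-KO colon and 52.5 FPKM in WT colon, a 9.35-fold rise, though its listed locus is over 1.5 times as wide as the annotated gene. Epgn, the epigen gene, was at 4.52 FPKM in Elf4-KO and 1.54 FPKM in WT (q = 0.0128 in the authors' deposited table). Areg, the amphiregulin gene next to them, fell 2.29-fold, to 18.5 FPKM in Elf4-KO, against 42.4 FPKM in WT (q = 0.000998 in the authors' deposited table). On the other side of the cluster, Rassf6 was at 2.52 FPKM in Elf4-KO and 30.6 FPKM in WT. Within 1000000 bases of Cxcl1, Cxcl2 or Cxcl3, 8 other genes were listed, of which 6 were higher and 2 lower, beside 48.0% higher and 52.0% lower over all listed genes. The 6 include the related genes Cxcl5, Ppbp and Pf4.

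Within 1000000 bases of Csf3, 13 other genes were listed. Of these, 2 were higher and 11 lower, beside 48.0% higher and 52.0% lower over all listed genes. Whether these counts differ between the regions was not tested. Igfbp4, an inhibitor of insulin-like growth factors, rose 2.90-fold to 472 FPKM in Elf4-KO colon, against 163 FPKM in WT colon. The other that rose was Fbxl20 (16.3 FPKM in Elf4-KO and 7.17 FPKM in WT). Among those that fell were Ppp1r1b (1.31 FPKM in Elf4-KO and 60.8 FPKM in WT), the colonocyte keratin gene Krt20 (75.8 FPKM in Elf4-KO and 624 FPKM in WT) and the receptor tyrosine kinase gene Erbb2 (4.55 FPKM in Elf4-KO and 16.2 FPKM in WT), whose locus is shared with another listed gene. These genes were chosen after their values were seen.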
